A study of Caenorhabditis elegans with 12 samples.

Results

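The genes described here are 9 germline and small-RNA Argonautes of *C. elegans*: *prg-1*, *csr-1*, *hrde-1*, *wago-1*, *wago-4*, *rde-1*, *ergo-1*, *alg-3* and *alg-4*. They were taken by name, with no cut on their values, from the 46721 genes kept in the deposited tables. Earlier results of these data were known when they were chosen. All 9 were found. The libraries came from vIPR, in which a transcript is crosslinked to its bound proteins in living worms and pulled down with biotinylated DNA probes. The Argonaute mRNAs were not targets of any pulldown, so their values describe the RNA that came along with the targets and the RNA of the worms the pulldowns started from.

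All worms were young adults, and each condition was sequenced in 1 library. There were 7 elutions, 4 inputs and 1 total RNA library. From strain BS1080, which carries a *gld-1::gfp* transgene beside its own *gld-1*, there were elutions with *gfp* probes after PAR-XL (4SU labelling and UV at long wavelength), PFA-XL (paraformaldehyde) and cXL (UV at short wavelength without 4SU), inputs for PAR-XL and cXL, and total RNA of the PAR-XL set, extracted directly with Trizol from worms that were not crosslinked. Whether the worms for total RNA had received 4SU is not given in the sources used here. From strain DG3913, which has *gfp* at the endogenous *lin-41* locus, there were a cXL elution with *gfp* probes and its input. From N2, the wild type, there were cXL elutions with probes against the untagged transcripts of *gld-1*, *lin-41* or *alg-1*, which share a single cXL input. Inputs are lysate taken before the pulldown. No PFA-XL input was analysed here, and for PAR-XL the input was not from the pulldown that gave the elution. PAR-XL worms grew in liquid culture with 4SU, whereas cXL and PFA-XL worms grew on plates, so culture and crosslinking cannot be told apart in comparisons between them. Elutions had received carrier RNA from HEK293, a human cell line. The cXL elutions were depleted of human ribosomal RNA with RNase H, and the PAR-XL and PFA-XL elutions of ribosomal RNA with RiboMinus probes for eukaryotes. Inputs and total RNA were depleted of *C. elegans* ribosomal RNA with RNase H. Elution and depletion therefore cannot be told apart either.

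Argonaute proteins hold a small RNA and use it to find complementary transcripts. Worms use primary Argonautes, which bind piRNAs or the products of Dicer, and secondary Argonautes of the worm-specific WAGO clade, which bind antisense small RNAs made by RNA-dependent RNA polymerases on the transcripts that the primary Argonautes found. In the germline this relay silences transposons and foreign sequences, passes silencing to the progeny and, through CSR-1, is thought to protect expressed genes.

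Levels are TPM (relative abundance corrected for transcript length) rescaled to sum to 1000000 over *C. elegans* RNA without ribosomal RNA. After human RNA, spike-ins and ribosomal RNA had been removed, 17484505 estimated counts remained in the PFA-XL elution and between 268787 (N2 *alg-1*) and 3106495 (*gld-1::gfp* PAR-XL) in the other elutions. Inputs and total RNA kept between 12227263 and 26695650 counts. The targets took 21.1% to 66.6% of the TPM of the elutions, which lowers the TPM of every other gene. Each comparison therefore gives the ratio of elution TPM to input TPM beside that of the median gene. Intervals are 95% Poisson intervals that cover counting error only, and no p-values are given because no condition was replicated. Markers of germline, oocyte, sperm, muscle, intestine, neurons and skin all had counts in every input and in total RNA. Because whole worms were sequenced, fewer cells of a type and less RNA per cell cannot be told apart.

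The most abundant members in every input and in total RNA were the secondary Argonautes *wago-1* and *hrde-1*. *wago-1* (WBGene00011061, WBcel235 chromosome I, 7235384 to 7238794, plus strand) encodes a cytoplasmic WAGO protein of germ granules that silences transposons, pseudogenes and some genes. Its level was 219 TPM in the BS1080 PAR-XL input, 339 TPM in the BS1080 cXL input, 356 TPM in the DG3913 input, 376 TPM in the N2 input and 198 TPM in total RNA. *hrde-1* (WBGene00007624, chromosome III, 4172337 to 4176159, minus strand) encodes the nuclear Argonaute of heritable RNAi. It had 198 TPM in the PAR-XL input, 329 TPM in the BS1080 cXL input, 333 TPM in the DG3913 input, 352 TPM in the N2 input and 187 TPM in total RNA. *wago-1* stood above *hrde-1* in all 5 of these libraries, and in the N2 input their intervals (369 to 383 TPM for *wago-1* and 346 to 358 TPM for *hrde-1*) did not overlap. Both lay within the top 3.50% of the 20449 protein-coding genes in each of these libraries.

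The next pair in the order were *prg-1* and *csr-1*. *prg-1* (WBGene00004178, chromosome I, 7585324 to 7588367, minus strand) encodes the PIWI protein that binds piRNAs in germ granules. Among the inputs it was at 143 TPM in BS1080 PAR-XL, 163 TPM in BS1080 cXL, 165 TPM in DG3913 and 179 TPM in N2, against 135 TPM in total RNA. *csr-1* (WBGene00017641, chromosome IV, 7957580 to 7962121, plus strand) encodes the essential Argonaute whose small RNAs are antisense to most germline-expressed genes. It had 130 TPM in the PAR-XL input, 156 TPM in the BS1080 cXL input, 179 TPM in the DG3913 input, 186 TPM in the N2 input and 120 TPM in total RNA. Their order was not fixed: *csr-1* was above *prg-1* in the DG3913 and N2 inputs and below it in both BS1080 inputs and in total RNA.

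*ergo-1* and *wago-4* followed. *ergo-1* (WBGene00019971, chromosome V, 1008803 to 1018358, plus strand) encodes a primary Argonaute that binds Dicer-dependent small RNAs in oocytes and embryos. It had 72.5 TPM in the PAR-XL input, 113 TPM in the BS1080 cXL input, 130 TPM in the DG3913 input, 115 TPM in the N2 input and 74.8 TPM in total RNA. *wago-4* (WBGene00010263, chromosome II, 12919577 to 12923373, plus strand) encodes a cytoplasmic WAGO protein that carries silencing to the progeny. Its 4 inputs ranged from 79.7 to 96.7 TPM, and total RNA had 68.8 TPM. *wago-4* was the higher of the pair in the PAR-XL input, and *ergo-1* in the cXL inputs and in total RNA.

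The remaining members were lower. *rde-1* (WBGene00004323, chromosome V, 9987915 to 9991642, minus strand) encodes the primary Argonaute for double-stranded RNA taken up from outside, which acts in soma and germline. It had 41.3 TPM in the DG3913 input and 40.5 TPM in total RNA, and between 19.9 and 25.7 TPM in the other inputs. *alg-3* (WBGene00011910, chromosome IV, 11704251 to 11708237, plus strand) and *alg-4* (WBGene00006449, chromosome III, 9887211 to 9891437, minus strand) encode close paralogs that act during spermatogenesis. *alg-3* had 25.4 TPM in the PAR-XL input and 23.3 TPM in total RNA, against 11.4 TPM in the BS1080 cXL input, 6.54 TPM in the DG3913 input and 7.73 TPM in the N2 input. *alg-4* had 38.6 TPM in the PAR-XL input and 25.8 TPM in total RNA, against 14.5 TPM in BS1080, 5.44 TPM in DG3913 and 10.8 TPM in N2 with cXL. For both paralogs the PAR-XL input and total RNA were above all 3 cXL inputs.

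In the elutions the order changed at the top. *prg-1* was the most abundant member in 5 of the 7 elutions, and *hrde-1* in the *gfp::lin-41* and *alg-1* elutions, but the intervals of the pair overlapped in *gld-1::gfp* cXL, *gfp::lin-41* and N2 *lin-41*. *prg-1* had 243 TPM (873 counts) in the *gld-1::gfp* PAR-XL elution, 181 TPM (713 counts) in the N2 *gld-1* elution, 148 TPM (2843 counts) in the PFA-XL elution and 140 TPM (130 counts) in the *gld-1::gfp* cXL elution. The elutions of the *lin-41* transcripts had 122 TPM (118 counts, DG3913) and 133 TPM (159 counts, N2), and the *alg-1* elution had 59.6 TPM (20 counts). The PAR-XL elution was above the highest *prg-1* input (179 TPM) and the *alg-1* elution below the lowest (143 TPM) by more than counting error, and the N2 *gld-1* elution was at the level of its own input. *wago-1* had between 71.6 and 111 TPM in the 7 elutions, with a median of 98.3 TPM, all below the 219 TPM of its lowest input. The 7 elutions of *csr-1* (45.8 to 101 TPM) also lay below all its inputs, and so did those of *ergo-1* (27.4 to 70.0 TPM), whose lowest input had 72.5 TPM.

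**Figure D1:**
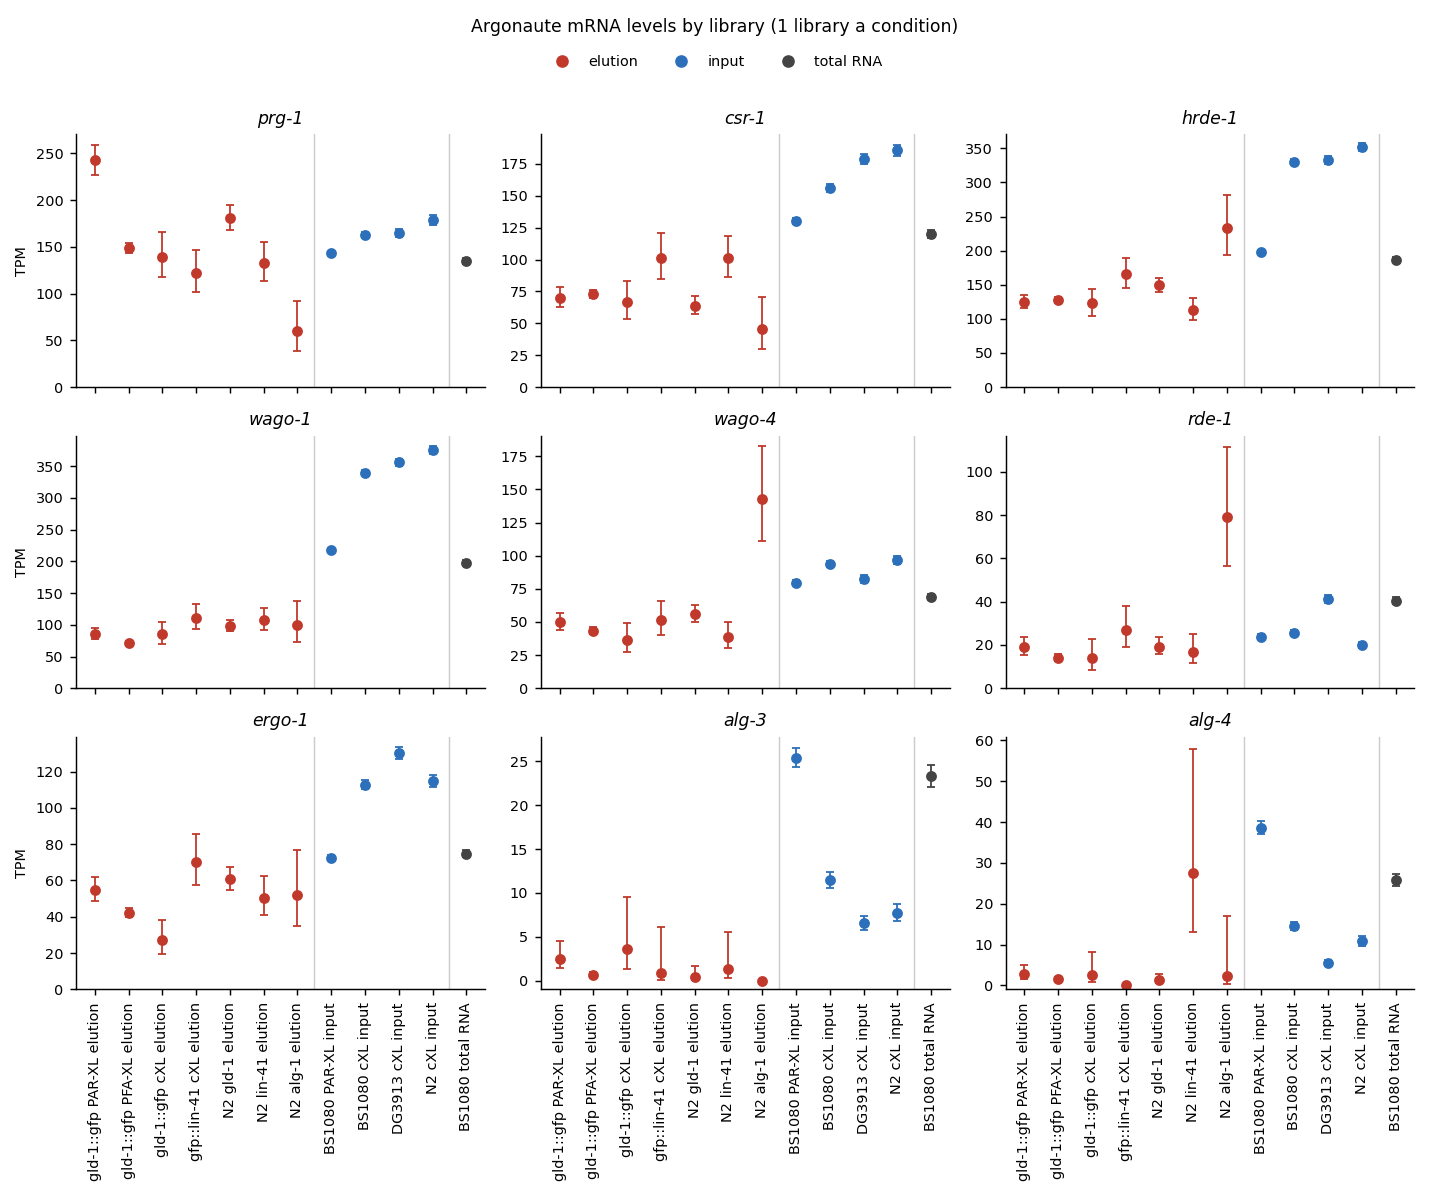
TPM of each Argonaute mRNA (vertical axis, linear, a scale of its own per gene) in the 7 elutions (red), 4 inputs (blue) and total RNA (grey), 1 library each, with 95% Poisson intervals of the estimated counts and none where the count is 0. All elutions of *wago-1* lie below its inputs, *prg-1* peaks at 243 TPM in the PAR-XL elution, and *wago-4* and *rde-1* peak at 142.5 and 79.4 TPM in the *alg-1* elution. The 27.7 TPM of *alg-4* in the N2 *lin-41* elution rest on 7 counts.

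The question for each pulldown was how these mRNAs came through relative to the rest of the transcriptome. Genes were compared where the input had a TPM above 1 and at least 10 counts, and a gene was called where its ratio was over 2-fold from the median ratio with an interval that did not hold the median. In the shallow elutions many of the genes compared had fewer than 3 counts and were put at 3 counts as an upper bound. They made up 39.1% of genes in the *gld-1::gfp* PAR-XL comparison, 54.5% in *gld-1::gfp* cXL, 50.6% in *gfp::lin-41*, 28.8% in N2 *gld-1*, 42.8% in N2 *lin-41* and 61.0% in N2 *alg-1*. The median then sits among bounds and not among measured ratios. A median was therefore also taken over genes with at least 20 counts expected in the elution from their input counts, of which 12 to 224 per comparison were under 3 counts. This measure was chosen after the values had been seen. The median ratios over these deeply counted genes were 0.548 in *gld-1::gfp* PAR-XL, 0.384 in *gld-1::gfp* cXL, 0.487 in *gfp::lin-41*, 0.449 in N2 *gld-1*, 0.512 in N2 *lin-41* and 0.437 in N2 *alg-1*. Over all genes compared the medians were 0.654, 0.863, 0.817, 0.549, 0.890 and 1.71 in the same order.

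Against the median of all genes compared, 3 of the 9 members were called in the *gld-1::gfp* PAR-XL pulldown, where 35.1% of all genes were, and 7 of 9 in *gld-1::gfp* cXL (43.2% of all genes). In *gfp::lin-41* 1 of 9 was called (38.4%), in N2 *gld-1* 3 of 9 (28.3%), in N2 *lin-41* 6 of 9 (35.3%) and in N2 *alg-1* 6 of 9 (50.1%). Against the median of deeply counted genes the calls were fewer. In *gld-1::gfp* PAR-XL 1 of 9 members was above (19.9% of deeply counted genes) and 2 below (27.4%), and in N2 *gld-1* 2 of 9 were above (19.6%) and 2 below (19.2%). In *gld-1::gfp* cXL 1 of the 6 deeply counted members was above (17.0%) and 0 below (19.4%), and in N2 *alg-1* 1 of 6 was above (15.8%) and 0 below (15.3%). None of the 7 deeply counted members in *gfp::lin-41* was above (12.1%) or below (15.8%), and none of the 6 in N2 *lin-41* (16.6% above, 21.2% below). The counts differ both in the median and in the members tested. Of the 7 called against all genes in *gld-1::gfp* cXL, 5 were within 2-fold of the other median and 2 had too few counts expected, and the 1 call there, *prg-1*, was new. The 6 called in N2 *alg-1* gave 5 within and 1 not tested, with *wago-4* as a new call, and the 6 in N2 *lin-41* gave 4 within and 2 not tested. All 3 calls in *gld-1::gfp* PAR-XL were the same with either median.

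**Figure D2:**
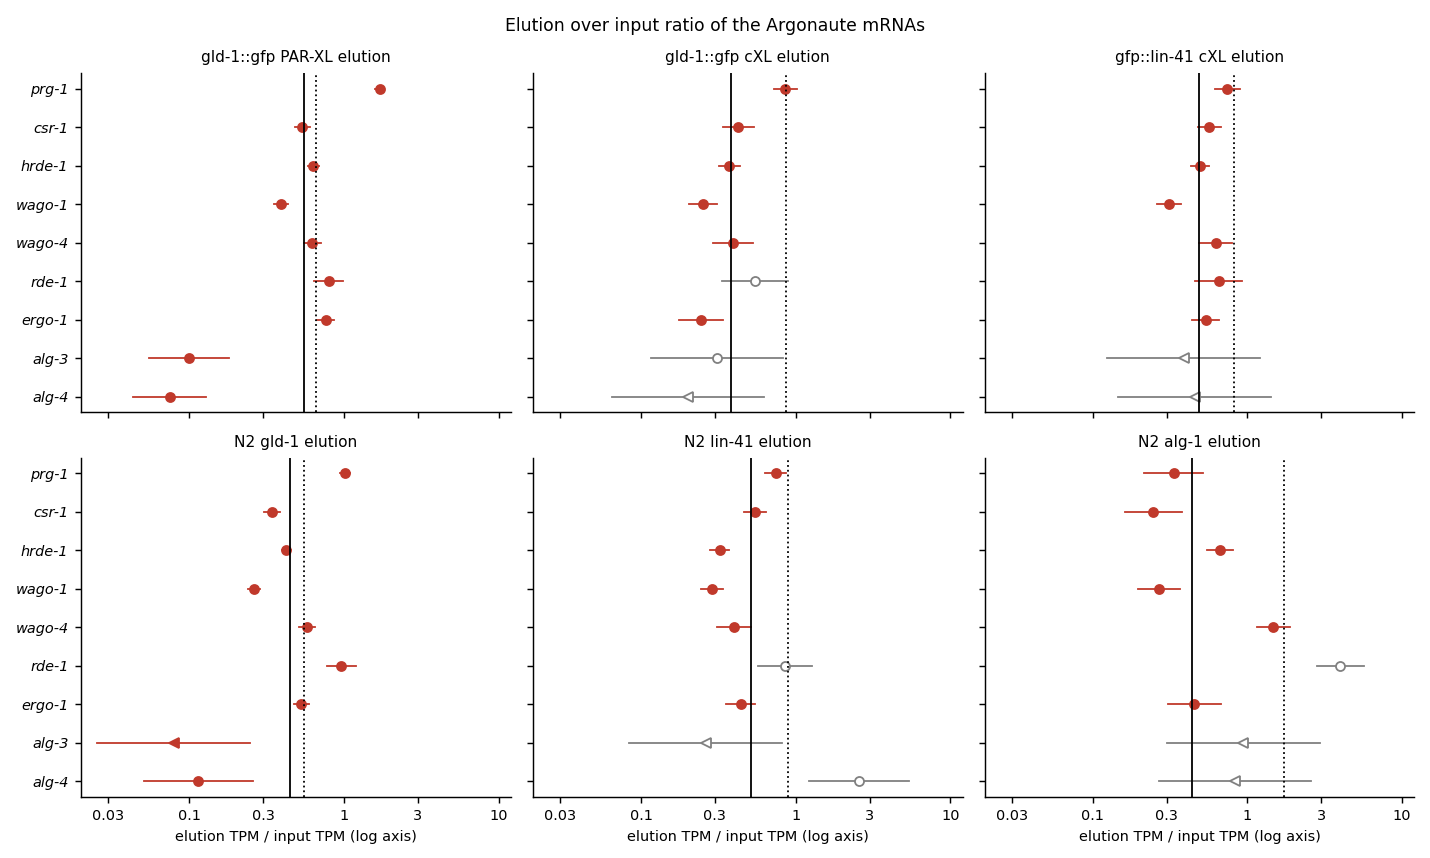
Elution TPM over input TPM (horizontal log axis) of the 9 members in the 6 pulldowns with an input, with 95% Poisson intervals. Solid lines mark the median of deeply counted genes and dotted lines that of all genes compared. Filled red symbols are members with at least 20 counts expected in the elution, open grey symbols are members with fewer, and triangles pointing left are upper bounds from fewer than 3 counts. *prg-1* lies right of the solid line in every panel but *alg-1*, and *wago-1* left of it in all 6.

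*prg-1* had the highest ratio of the 6 members with the deepest counts in 5 of the 6 pulldowns. Its ratio was 1.70 (95% CI 1.58 to 1.82) in *gld-1::gfp* PAR-XL, 3.09 times the median of deeply counted genes, and 92.5% of those genes had a lower ratio. It was 0.858 (0.721 to 1.02) in *gld-1::gfp* cXL and 1.01 (0.937 to 1.10) in N2 *gld-1*, which were 2.24 and 2.26 times the median. In the *lin-41* pulldowns it was 0.742 (0.618 to 0.890) with *gfp* probes and 0.743 (0.635 to 0.871) with endogenous probes, or 1.52 and 1.45 times the median, both short of 2-fold. In N2 *alg-1* the ratio was 0.333 (0.215 to 0.517), 0.763 times the median. Of these values for *prg-1*, the PAR-XL one was 2.59 times the median of all genes compared and called above it, and the *alg-1* one was 0.195 times and called below it. The share of deeply counted genes with a ratio lower than *prg-1* was 86.8% in *gld-1::gfp* cXL and 84.2% in N2 *gld-1*. It was 76.3% in *gfp::lin-41*, 68.9% in N2 *lin-41* and 34.9% in N2 *alg-1*. In the N2 *gld-1* elution the intestine markers *vit-2*, *vit-6*, *ges-1* and *elt-2* summed to 105170 TPM (*elt-2* at 0), against 14203 TPM in the N2 input. The rise was not shared by all 4: 1 was above and 1 below the median of all genes compared (28.3% of all genes called). The median ratio of the 4 was 0.383, against 0.549 over all genes compared. The part of these markers in the values of that pulldown was not tested.

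Pulldowns of *gld-1* and of *lin-41* were also set against each other. Relative to the median of deeply counted genes, *prg-1* was 1.47 times higher in *gld-1::gfp* cXL than in *gfp::lin-41* (95% CI 1.14 to 1.89) and 1.55 times higher in N2 *gld-1* than in N2 *lin-41* (1.31 to 1.85). Relative to the medians of all genes compared the values were 1.09 (0.851 to 1.41), an interval that held 1, and 2.21 (1.86 to 2.62). Of the other 6 members compared this way, none but *ergo-1* had an interval that left out 1 with the *gfp* probes, and its value of 0.574 (0.391 to 0.843) turned to 1.37 (1.08 to 1.73) with the endogenous probes. *hrde-1* and *wago-4* were higher in N2 *gld-1* than in N2 *lin-41*, by 1.502 (1.28 to 1.76) and 1.64 times (1.24 to 2.18), while *csr-1* was lower, at 0.718 (0.590 to 0.874). With the *gfp* probes the same values were 0.952 for *hrde-1*, 0.798 for *wago-4* and 0.954 for *csr-1*, and their intervals all held 1. These too moved with the median: relative to all genes compared *csr-1* was 1.02 (0.839 to 1.24) in the N2 pair, and with the *gfp* probes *hrde-1* was 0.7097 (0.577 to 0.873), *wago-4* 0.595 (0.404 to 0.876) and *csr-1* 0.711 (0.535 to 0.946). *rde-1* was deeply counted in 1 library of each pair. Each of these is 1 library against 1 library, so the spread between repeat pulldowns is unknown.

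*wago-1* stood on the other side. Its ratio lay between 0.251 (*gld-1::gfp* cXL) and 0.393 (*gld-1::gfp* PAR-XL) in the 6 pulldowns, which was 0.563 to 0.717 times the median of deeply counted genes. The upper end of the interval stayed under that median in all 6. None of these reached 2-fold, whereas against the median of all genes compared *wago-1* was at 0.156 to 0.602 times and called below in 5 of 6. Between 24.1% (N2 *alg-1*) and 37.6% (*gld-1::gfp* PAR-XL) of deeply counted genes had a ratio lower than *wago-1*. *hrde-1*, next to *wago-1* in the inputs, came through at 0.943 to 1.15 times the median in 4 of the pulldowns, with 0.628 in N2 *lin-41* and 1.52 in N2 *alg-1*. Against all genes compared it was at 0.361 to 0.969 times and called below in 3, *alg-1* among them. The order of the secondary Argonautes *wago-1* and *hrde-1* was the reverse in the elutions: *hrde-1* had between 113 and 234 TPM there, and was above *wago-1* in all 7, in N2 *lin-41* with overlapping intervals (113 TPM against 108 TPM).

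Among the other members, *csr-1* had ratios of 0.247 to 0.567, or 0.564 to 1.16 times the median of deeply counted genes, and its interval lay below the median in N2 *gld-1* (0.763 times) and N2 *alg-1* (0.564 times). *ergo-1* had ratios of 0.243 to 0.759. It was furthest below the median in *gld-1::gfp* cXL, at 0.634 times with 36 counts, and furthest above in *gld-1::gfp* PAR-XL, at 1.38 times with 281 counts. *wago-4* was 0.781 to 1.28 times the median in the 5 pulldowns other than *alg-1*. *rde-1* was deeply counted in 3 pulldowns, where it was 1.34 (*gfp::lin-41*), 1.45 (*gld-1::gfp* PAR-XL) and 2.14 times (N2 *gld-1*) the median, the last of them past 2-fold. Against the median of all genes compared *csr-1* was called below in 2 of the 6 pulldowns, *ergo-1* in 3 and *wago-4* in 2, and *rde-1* was 1.75 times that median in N2 *gld-1*, short of a call.

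The *alg-1* pulldown differed from the others for *rde-1*, *wago-4* and *hrde-1*. ALG-1 is an Argonaute itself, of the clade that binds microRNAs, and its elution was the shallowest library. *rde-1* had 79.4 TPM there (33 counts, 95% CI 56.4 to 112), against 19.9 TPM in the N2 input, a ratio of 3.98 (2.81 to 5.65). In the other 6 elutions it had 14.01 to 26.9 TPM. *wago-4* had 142.5 TPM (61.8 counts), against 96.7 TPM in the N2 input, a ratio of 1.47 (1.15 to 1.90) and 3.37 times the median of deeply counted genes, but 0.861 times that of all genes compared. In the other elutions it had 36.8 to 55.8 TPM. *hrde-1* had 234 TPM (108 counts), with 113 to 165 TPM in the other elutions, and turned with the median: it was 1.52 times that of deeply counted genes and 0.389 times that of all genes compared, where it was called below. *rde-1* was 2.33 times the median of all genes compared and called above it, and had fewer than 20 counts expected, so that it was not called against the other. With no filter on low values it was 0.32 log2 under the median gene (-0.32). Set against the N2 *lin-41* pulldown, which shares the input, *rde-1* was 5.49 times higher (3.26 to 9.23), *wago-4* 4.32 times (3.02 to 6.16) and *hrde-1* 2.42 times (1.91 to 3.07), relative to each median of deeply counted genes, although *rde-1* was itself not deeply counted in either. Relative to the medians of all genes compared these values were 2.44 (1.45 to 4.10), 1.92 (1.34 to 2.74) and 1.08 (0.848 to 1.36), and the interval of *hrde-1* then held 1. *prg-1* and *csr-1* were lower with both medians, at 0.526 (0.330 to 0.837) and 0.531 (0.336 to 0.839) relative to deeply counted genes. *wago-1* and *ergo-1* had intervals that held 1 with that median, and were lower relative to all genes compared, at 0.482 (0.340 to 0.685) and 0.535 (0.343 to 0.835). In the N2 *lin-41* elution, the reference here, *alg-1* itself had 158 TPM (364 counts), against 22.0 TPM in the input. Its part in this comparison was not tested.

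Of the Argonautes outside the 9 members, *alg-2* and *alg-5* also stood out in the *alg-1* elution. Most of the others did not rise. On the list of other Argonautes, which lacks *alg-2*, 1 of 10 was above the median of all genes compared and 6 below (50.1% of all genes called). Of the 2 that were deeply counted, 0 were above and 0 below the other median. *alg-2*, the close paralog of *alg-1*, had 2047 TPM (858 counts) there, against 38.9 TPM in the N2 input. *alg-5*, another Argonaute of that clade, named after its values had been seen, had 361 TPM (146 counts), against 46.2 TPM in the input. Whether the *alg-1* probes match any of these transcripts was not tested. Of the paralogs closest to members, *prg-2* had 20.4 TPM in the *alg-1* elution against 62.1 TPM in the input, and *wago-2* had 18.3 TPM against 57.1 TPM. Both are annotated as pseudogenes in RefSeq. Reads common to *prg-1* and *prg-2*, to *wago-1* and *wago-2*, or to the members *alg-3* and *alg-4* were divided by kallisto. The values of these genes are therefore less certain than their intervals show. *prg-2* had between 41.9 and 71.7 TPM in the inputs and *wago-2* between 39.8 and 73.0 TPM, below *prg-1* and *wago-1* in each.

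The spermatogenesis Argonautes had few counts in the elutions. *alg-3* had 2.53 TPM (11 counts) in the *gld-1::gfp* PAR-XL elution, against 25.4 TPM in its input, a ratio of 0.0995 (95% CI 0.0550 to 0.180). *alg-4* had 2.88 TPM (13 counts) there, against 38.6 TPM, a ratio of 0.0746 (0.0432 to 0.129). These were 0.181 and 0.136 times the median of deeply counted genes. Of the *alg-4* level in that input, 12.3 TPM lay on the short transcript ZK757.3c, which had 0 counts in the elution. The other transcripts had 26.4 TPM there, so the order of the 2 ratios is uncertain. In N2 *gld-1*, *alg-3* had 2 counts, against 7.73 TPM in the input, and its ratio with these put at 3 counts was 0.0794 (0.0254 to 0.248). *alg-4* had 6 counts and a ratio of 0.114 (0.0510 to 0.256). In the remaining 4 pulldowns with an input fewer than 20 counts of either were expected, and 0 to 7 were found. Neither could be read against the median of deeply counted genes there. Against the median of all genes compared, *alg-3* was called below in *gld-1::gfp* cXL, at 0.361 times (0.135 to 0.965), and in N2 *lin-41*, at 0.294 times (upper end 0.918), and *alg-4* below in *gld-1::gfp* cXL, at 0.233 times (upper end 0.725). Neither was called in *gfp::lin-41* or N2 *alg-1*. The 7 counts were those of *alg-4* in the N2 *lin-41* elution. A single count there fell on ZK757.3c, a transcript of 362 nt, and made 23.6 of the 27.7 TPM of the gene. The call of *alg-4* above the median of all genes compared in that pulldown, at 2.88 times, rests on that count. Without it *alg-4* had 4.06 TPM.

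Sperm markers were also low in the elutions. The 10 markers on the list, among them the major sperm proteins *msp-142* and *msp-78* and the phosphatases *gsp-3* and *gsp-4*, summed to between 0 and 109 TPM in the elutions, against 231 to 616 TPM in the inputs and 903 TPM in total RNA. In the *alg-1* elution all 10 had no counts. In *gld-1::gfp* PAR-XL 4 of the 5 deeply counted sperm markers were below the median by over 2-fold (27.4% of deeply counted genes), and in N2 *gld-1* 1 of 4 (19.2%). The part of sperm RNA as a whole in the values of *alg-3* and *alg-4* was not tested. Low sums were not limited to sperm markers. The 3 muscle markers summed to 192 to 594 TPM in the elutions, against 1368 to 2098 TPM in the inputs, and all 3 were below the median in both *gld-1::gfp* PAR-XL and N2 *gld-1*. The 6 oocyte markers summed to 1281 to 1928 TPM in the elutions, against 2157 to 4222 TPM in the inputs. Their median ratio was above that of deeply counted genes in *gld-1::gfp* PAR-XL (0.853 against 0.548), *gld-1::gfp* cXL (0.445 against 0.384) and *gfp::lin-41* (0.523 against 0.487). It was below in N2 *gld-1* (0.377 against 0.449), N2 *lin-41* (0.309 against 0.512) and N2 *alg-1* (0.375 against 0.437). The sums of the 8 germline markers, such as *glh-1* and *pgl-1*, overlapped, with 1250 to 1898 TPM in the elutions, against 1109 to 2167 TPM in the inputs. Their median ratio was above that of deeply counted genes in every pulldown, with 2.11 against 0.548 in *gld-1::gfp* PAR-XL. Against all genes compared it was below in *gld-1::gfp* cXL, N2 *gld-1* and N2 *alg-1*. In *gld-1::gfp* PAR-XL 5 of the 8 were above the median of deeply counted genes by over 2-fold (19.9% of those genes). In N2 *gld-1* 3 of 8 were (19.6%).

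**Figure D3:**
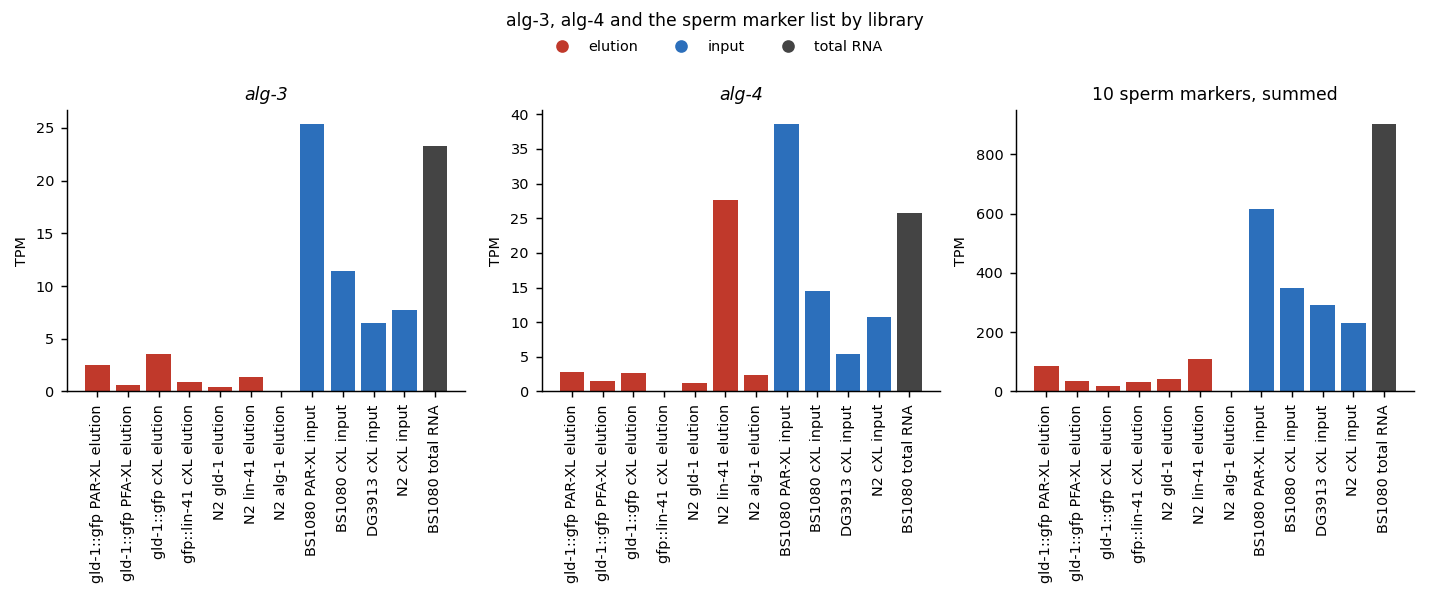
TPM of *alg-3*, of *alg-4* and of 10 sperm markers summed (vertical axes, linear from 0) in the 7 elutions (red), 4 inputs (blue) and total RNA (grey), 1 library each. In all panels the PAR-XL input and total RNA are above the 3 cXL inputs, and the elutions are low apart from *alg-4* in N2 *lin-41*, where 1 count on a short transcript made 23.6 of 27.7 TPM.

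The inputs were compared with each other and with total RNA. Between the PAR-XL and cXL inputs of BS1080, 1 of 9 members was called, where 22.9% of all genes were. *alg-4* was higher in PAR-XL, with a ratio of 2.66 (95% CI 2.46 to 2.89), and *alg-3* had a ratio of 2.22 (2.04 to 2.42), against a median of 1.14. The short transcript ZK757.3c took 12.3 TPM of *alg-4* in the PAR-XL input and 1.76 TPM in the cXL input, and without it *alg-4* fell short of the 2-fold call, with 26.4 TPM against 12.7 TPM. *hrde-1*, *ergo-1* and *wago-1* had the lowest ratios of the members, at 0.59996 (0.588 to 0.612), 0.643 (0.622 to 0.664) and 0.645 (0.632 to 0.659). *prg-1* (0.880), *csr-1* (0.834), *wago-4* (0.851) and *rde-1* (0.925) lay closer to the median. In the same comparison 4 of 9 sperm markers were above and 3 of 6 oocyte markers below the median by over 2-fold. Below it were also 2 of 8 germline and 2 of 4 intestine markers, and above it 1 of 4 neuron and 1 of 2 skin markers. The intestine markers summed to 1603 TPM in the PAR-XL input, against 10379 TPM in the cXL input. The part of cell composition in the Argonaute values was not tested.

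PAR-XL input and total RNA of BS1080 were close. None of the 9 members was called, where 7.99% of all genes were. The ratios of *prg-1*, *csr-1*, *hrde-1*, *wago-1*, *wago-4* and *alg-3* lay between 1.06 and 1.16, against a median of 0.799 over all genes, and that of *ergo-1* was 0.968. *rde-1* was the lowest at 0.589 (0.554 to 0.625), and *alg-4* the highest at 1.498 (1.40 to 1.60). The short transcript ZK757.3c took 12.3 TPM of *alg-4* in the PAR-XL input and 3.32 TPM in total RNA. Without it *alg-4* had 26.4 TPM in the PAR-XL input, against 22.5 TPM in total RNA, so its ratio depends on that transcript.

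Among the cXL inputs, strains were compared with N2. Between BS1080 and N2 none of the 9 members was called (4.11% of all genes), and the ratios ran from 0.841 (*csr-1*) to 1.48 (*alg-3*), with a median gene at 0.987. Between DG3913 and N2, 1 of 9 was called (6.17% of all genes). This was *alg-4*, lower in DG3913 at 0.505 (0.425 to 0.599) against a median of 1.29. The short transcript ZK757.3c took 2.19 TPM of *alg-4* in the N2 input, from 2 counts, and 0 TPM in the DG3913 input. Without it *alg-4* had 5.44 TPM in DG3913, against 8.60 TPM in N2. *rde-1* was at the other end, with a ratio of 2.07 (1.90 to 2.26) and 1.61 times the median. *prg-1*, *csr-1*, *hrde-1* and *wago-1* had ratios of 0.922 to 0.962.

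Between the PFA-XL and PAR-XL elutions of *gld-1::gfp*, 1 of 9 members was called, where 11.4% of all genes were. *alg-3* had 0.630 TPM in PFA-XL (15 counts), against 2.53 TPM in PAR-XL (11 counts), a ratio of 0.249 (95% CI 0.115 to 0.543). *alg-4* had a ratio of 0.509 (0.269 to 0.962). In this comparison 3 of the 4 sperm markers that could be compared and 1 of 3 neuron markers were below the median by over 2-fold, and 1 of 6 oocyte and 1 of 2 intestine markers above. *prg-1* was lower in PFA-XL at 0.611 (0.566 to 0.659), against a median of 0.824, and was still the most abundant member in both. *csr-1* and *hrde-1* had ratios of 1.04 (0.923 to 1.17) and 1.01 (0.930 to 1.10), and *ergo-1*, *rde-1*, *wago-1* and *wago-4* lay between 0.744 and 0.875.

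*csr-1* was the member with the most counts on more than 1 transcript. Those of *alg-3* and *alg-4* were divided as well. In the BS1080 cXL input *alg-3* had 391 counts on T22B3.2a and 280 on T22B3.2b. The longer transcript of *csr-1*, F20D12.1a (3551 nt), starts upstream of F20D12.1b (3062 nt) and encodes an extended amino terminus. The longer form is known for spermatogenesis and some somatic tissues, and the shorter for the germline throughout. F20D12.1a took 49.8% of the TPM of *csr-1* in the BS1080 PAR-XL input, 57.7% in BS1080 cXL, 45.6% in DG3913 and 54.9% in N2, against 35.9% in total RNA. In the elutions its share ran from 27.9% in N2 *lin-41* to 91.6% in N2 *alg-1*, where the gene had 21 counts in all. With the *gfp* probes the share was 64.9% in PAR-XL, 43.5% in PFA-XL, 39.9% in cXL and 64.1% in *gfp::lin-41*. The transcripts share most of their sequence and no error of kallisto's division was in the tables, so these shares carry no interval.

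**Figure D4:**
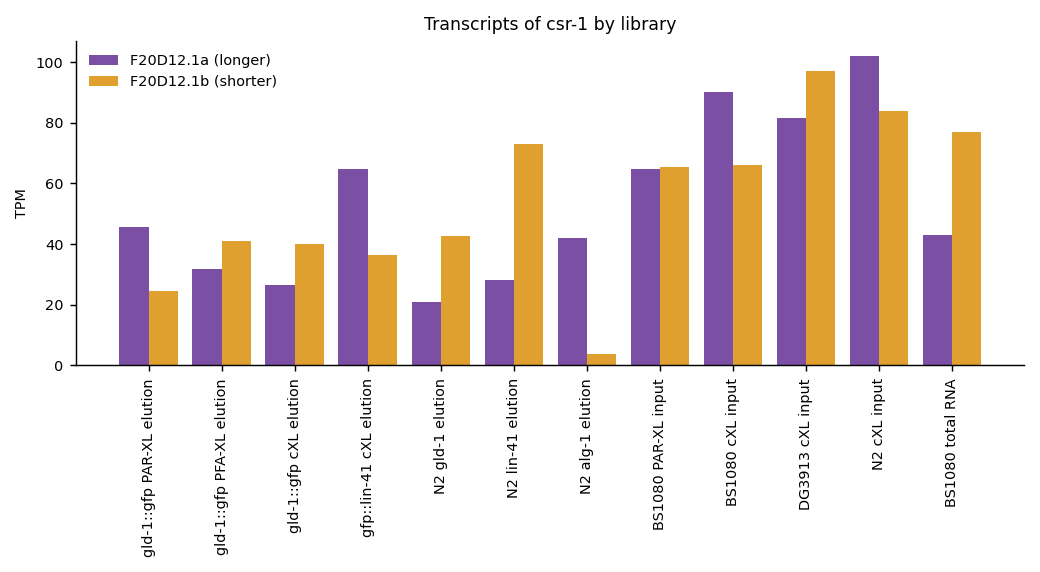
TPM of the longer (purple) and shorter (yellow) transcript of *csr-1* (vertical axis, linear from 0) in the 12 libraries, as kallisto divided the reads. The longer transcript has 102 TPM in the N2 input and 43.2 TPM in total RNA, and the shorter 83.8 and 76.9 TPM.

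Of 48 other small-RNA genes that could be compared, 0 were called between PAR-XL input and total RNA (7.99% of all genes), BS1080 and N2 inputs (4.11%), or DG3913 and N2 inputs (6.17%). Against the median of deeply counted genes, 13 of 46 were above in N2 *gld-1* (19.6% of deeply counted genes) and 4 below (19.2%). In *gld-1::gfp* PAR-XL 11 of 42 were above (19.9%) and 4 below (27.4%), and in *gld-1::gfp* cXL 9 of 18 were above (17.0%) and 0 below (19.4%). In N2 *lin-41* 7 of 24 were above (16.6%) and 2 below (21.2%), in *gfp::lin-41* 3 of 24 above (12.1%) and 0 below (15.8%), and in N2 *alg-1* 1 of 7 above (15.8%) and 1 below (15.3%). Against the median of all genes compared, more were below than above in 4 of the 6 pulldowns: of the 48, 1 was above and 15 below in *gld-1::gfp* cXL, 0 and 18 in *gfp::lin-41*, 6 and 10 in N2 *lin-41* and 3 and 23 in N2 *alg-1*, with 11 and 6 in *gld-1::gfp* PAR-XL and 10 and 7 in N2 *gld-1*. *dcr-1*, which encodes Dicer, was above the median of deeply counted genes in all 6 pulldowns and above that of all genes compared in 4, with 105 TPM against 30.2 TPM in *gld-1::gfp* PAR-XL and a ratio of 3.48. *rrf-3*, the RNA-dependent RNA polymerase that acts upstream of *ergo-1*, was above in the 5 pulldowns where it was deeply counted, and in 3 of 6 against all genes compared, with ratios of 1.04 to 2.14. *pgl-1*, a core protein of germ granules, was above in 5 of 6, but above in 2 and below in 1 against all genes compared, with 550 TPM against 159 TPM in *gld-1::gfp* PAR-XL.

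Others lay below or on either side. *deps-1*, a germ granule protein needed for piRNA silencing, was below in 3 of 6 pulldowns, and in 5 against all genes compared, with ratios of 0.153 to 0.482. *vsra-1*, a WAGO clade Argonaute, was below in 3 of the 4 pulldowns where it was deeply counted, and in all 6 against all genes compared, with 4.499 TPM against 30.3 TPM in *gld-1::gfp* PAR-XL. *ppw-2*, also known as *wago-3*, was above in 3 of 6, but above in 2 and below in 2 against all genes compared, with 205 TPM against 128 TPM in N2 *gld-1*. *prg-2*, the paralog of *prg-1*, was not called in any of the 5 pulldowns where it was deeply counted and lay at 0.522 to 0.796 times the median, all below *prg-1*, whose range in the same pulldowns was 1.45 to 3.09 times. Against all genes compared *prg-2* was called below in 5.

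Across the 12 libraries the genes with the most similar pattern, of 4301 protein-coding genes with TPM above 5 in all, were *nop-1* for *csr-1*, *egg-1* for *wago-1*, *egg-3* and *wdr-4* for *ergo-1*, *hpr-17* for *hrde-1*, *apg-1* for *prg-1*, *fnip-2* for *wago-4* and *cfp-1* for *rde-1*. The root mean square difference of centred log2 TPM was 0.11 for *nop-1* and 0.13 for *egg-1*, which were the closest, and 0.22 for *cfp-1*, the least close. The libraries share inputs, depth and target share, so this is a description of these libraries. *alg-3* and *alg-4* were under 5 TPM in most elutions and were not ranked.

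At the annotation level, *prg-1* shares its last bases with D2030.12 and *ergo-1* its end with *pei-2*, each on the opposite strand. D2030.12 had at most 65 counts and *pei-2* at most 350 counts in any library. The labels name a stranded kit and the study's methods an unstranded one, and the strand setting of the counting is not given in the sources used here, so reads of these overlaps cannot be told apart by strand.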

How the data were processed

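RNA of 12 libraries was analysed, 1 per condition, grouped by the titles in the labels. The authors pseudo-aligned single-end reads with kallisto 0.43.1 to the *C. elegans* transcriptome (WBcel235), with transgenes, spike-ins and human transcripts where they applied. The deposited files give, per transcript, an estimated count, not normalized, and a TPM that sums to 1000000 over the whole index. Here human RNAs, spike-ins, 22 ribosomal RNA genes and 5 other entries of the ribosomal DNA repeat were removed, the deposited TPM were rescaled to 1000000 and transcripts were summed per gene, with transgenes apart. The study removed pseudogenes overlapping ribosomal RNAs, and the choice of these 5 entries is an interpretation of that step. Symbols matched for 43693 of 46748 identifiers.

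Genes needed a TPM above 1 and at least 10 counts in the denominator. Ratios carry 95% Poisson intervals on the log scale, which cover counting error only, as no molecular identifiers were used and reads from 1 molecule cannot be told apart. Numerators under 3 counts were put at 3. Called means over 2-fold from the median gene with an interval that does not hold the median. No test between conditions was run, and Dixon's ratio was applied across libraries as an outlier test. The members and lists were chosen with earlier results of these data known. Named list genes were those called in at least 3 of the 6 elution over input comparisons, at most 5 per list, besides *alg-2* and *alg-5* and the paralogs *prg-2* and *wago-2*. Not all such genes are described. The ratios were tested on data simulated from the N2 input, with both libraries at the same depth and without genes of low counts. That setting does not cover the shallow elutions. Python 3.11.15, numpy 2.4.6, pandas 2.3.3 and matplotlib 3.10.9 were used. Sequences of transcripts and proteins were not analysed here.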

Additional observations from a re-analysis of the deposited data

Results flagged for a closer look

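For each member, the highest and lowest value among the 7 elutions and among the 4 inputs were set against Dixon's 95% critical ratio. These libraries differ in target and crosslinking and are not replicates, and in groups of like samples chance alone puts about 1 in 20 past it. Of 18 sets of values, 5 held a value past it. In the elutions these were *rde-1* with 79.4 TPM, *wago-4* with 142.5 TPM and *hrde-1* with 234 TPM, all highest in the N2 *alg-1* elution, and *alg-4* with 27.7 TPM in the N2 *lin-41* elution. The values in the *alg-1* elution rest on 33, 61.8 and 108 counts, in the library with the fewest counts, and the *alg-4* value on 7 counts. In the inputs, *hrde-1* was lowest in the PAR-XL input, with 198 TPM against 329 TPM in the next. The causes were not tested.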

How the results depend on the processing

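Testing only genes with 20 counts expected against their own median, chosen after seeing the data, left 1 of 6 members called in *gld-1::gfp* cXL in place of 7 of 9, 1 of 6 in N2 *alg-1* in place of 6 of 9, 0 of 6 in N2 *lin-41* in place of 6 of 9 and 0 of 7 in *gfp::lin-41* in place of 1 of 9, and the same counts of calls came with CPM in place of TPM. Both single calls, *prg-1* and *wago-4*, were new. This step moved 38 of 99 member ratios out of their intervals and reversed 4 more, no filter moved 70 and reversed 1, and TPM above 5 moved 49 of 97. The other median turned *csr-1* (0.15 log2 above that median, 0.12 with CPM) and *wago-4* (0.032, and 0.038 with CPM) in *gld-1::gfp* cXL, and *hrde-1* (0.60, and 0.66 with CPM) and *ergo-1* (0.052, and 0.11 with CPM) in N2 *alg-1*, which had been called below. With TPM above 5 in the input, 2 members were called in *gld-1::gfp* cXL, 3 in N2 *lin-41*, 0 in *gfp::lin-41*, 0 between PFA-XL and PAR-XL elutions and 2 between PAR-XL and cXL inputs. With no filter there were 9 in *gfp::lin-41*, 5 in N2 *gld-1* and 3 between PAR-XL and cXL inputs, and *rde-1* in N2 *alg-1* turned to -0.32 log2 from the median gene. A pseudocount of 1 TPM gave 0 between PFA-XL and PAR-XL elutions. At 4-fold there were 1 in *gld-1::gfp* cXL, 3 in N2 *alg-1*, and 0 in *gfp::lin-41*, in N2 *lin-41*, between PFA-XL and PAR-XL elutions, between PAR-XL and cXL inputs and between DG3913 and N2 inputs. At 1.5-fold there were 6 in N2 *gld-1*, 3 in *gfp::lin-41*, 5 between PAR-XL and cXL inputs, 4 between DG3913 and N2 inputs and 1 between PAR-XL input and total RNA. *alg-4* in N2 *lin-41*, called above, was 0.71 log2 under the median gene with CPM (-0.71) and at -0.92 without its short transcript, and without that transcript 0 members were called between PAR-XL and cXL inputs. Keeping ribosomal RNAs or the ribosomal DNA repeat entries, leaving out the targets, or taking the median over protein-coding genes left all 99 member ratios within their intervals. Under 20 counts of *alg-3* and *alg-4* were expected in 4 of the 6 pulldowns with an input.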
